A study of Mus musculus with 10 samples.

Results

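The transcripts described here encode 8 proteins of the SET-domain families that methylate lysine 4 of histone H3 (H3K4): Kmt2a, Kmt2b, Kmt2c, Kmt2d, Kmt2e, Setd1a, Setd1b and Setd7. They were taken by gene symbol from the 24421 genes of the deposited table, and all 8 were among the 15081 genes tested, those whose mean was 0.5 CPM or more. CPM are reads of a gene per 1000000 reads counted on any gene of the same library. RNA came from the ventral hippocampus (vHpc) of ovariectomized (OVX) female C57BL/6 mice, either wild type (WT) or with 1 germline knock-in copy of the Met variant of BDNF (Het-Met), given β-estradiol (E2) or vehicle. Surgery was at 70 to 80 days of age. After 2 weeks the animals drank water with 0.1% ethanol for 6 weeks, which for E2 groups also held 300 nM E2, about 0.7 µg per day. Each library pooled RNA of 2 animals. There were 2 WT vehicle libraries (replicates 1 and 3), 2 WT E2 libraries (replicates 1 and 2), 3 Het-Met vehicle libraries and 3 Het-Met E2 libraries, and all animals were OVX. A further replicate of each WT group was not analysed here.

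Methylated H3K4 marks active chromatin: the trimethylated form sits at promoters and the monomethylated form at enhancers. KMT2A to KMT2D and the SETD1 enzymes work inside large complexes that share a core of WDR5, RBBP5, ASH2L and DPY30, and differ in further subunits that help to decide where the complex acts. KMT2A is known for its part in neurogenesis and memory, and heterozygous loss of several of these genes in people causes developmental syndromes with intellectual disability. SETD7 is a separate, small enzyme that monomethylates H3K4 and many non-histone proteins, among them the estrogen receptor. The study asked how the Met allele and E2 together change gene expression in the vHpc.

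The genes lie on GRCm38 (mm10) at chr9:44803355-44881296 (Kmt2a), chr7:30568858-30588726 (Kmt2b), chr5:25271798-25498783 (Kmt2c), chr15:98831669-98871204 (Kmt2d), chr5:23434441-23504235 (Kmt2e), chr7:127776670-127800122 (Setd1a), chr5:123142193-123168629 (Setd1b) and chr3:51515319-51560879 (Setd7). Kmt2e, Setd1a and Setd1b are on the plus strand and the others on the minus strand. Their promoters are shown because several of these proteins, or their partners, themselves read CpG: KMT2A and KMT2B carry a CXXC domain that binds unmethylated CpG, and CXXC1 brings the SETD1 enzymes to it. RefSeq (GRCm38.p6) promoter windows of 300 bases were matched for 5 of the 8 genes, Kmt2a, Kmt2c, Kmt2d, Setd1a and Setd7, and not for Kmt2b, Kmt2e and Setd1b. The 250 bases before the start are printed for 3 genes whose levels moved together over the libraries, 5′ to 3′ on the gene's strand, with each CpG (the letters CG) in capitals.
Kmt2a (chr9:44881290-44881539, minus strand): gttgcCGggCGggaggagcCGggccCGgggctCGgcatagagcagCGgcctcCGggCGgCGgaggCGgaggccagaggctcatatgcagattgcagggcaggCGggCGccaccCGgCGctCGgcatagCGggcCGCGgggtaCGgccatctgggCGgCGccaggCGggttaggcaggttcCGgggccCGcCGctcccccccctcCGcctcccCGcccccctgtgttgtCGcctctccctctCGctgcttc
Kmt2c (chr5:25498784-25499033, minus strand): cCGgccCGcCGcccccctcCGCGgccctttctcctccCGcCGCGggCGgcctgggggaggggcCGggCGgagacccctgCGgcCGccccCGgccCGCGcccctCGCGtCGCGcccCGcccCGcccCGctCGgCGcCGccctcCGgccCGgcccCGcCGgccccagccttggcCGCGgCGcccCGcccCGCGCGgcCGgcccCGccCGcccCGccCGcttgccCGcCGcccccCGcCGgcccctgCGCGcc
Kmt2d (chr15:98871206-98871455, minus strand): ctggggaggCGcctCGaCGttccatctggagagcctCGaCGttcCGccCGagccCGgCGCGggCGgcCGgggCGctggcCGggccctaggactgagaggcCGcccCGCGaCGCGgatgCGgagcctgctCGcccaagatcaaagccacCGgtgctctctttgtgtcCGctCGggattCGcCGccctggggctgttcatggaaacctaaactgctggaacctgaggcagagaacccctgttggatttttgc
The whole 300-base windows held 36 CpG in Kmt2a, 56 in Kmt2c and 27 in Kmt2d, 35 in Setd1a and 21 in Setd7, against a median of 7 over 32851 promoters. Of all promoters, 99.8% had fewer CpG than Kmt2c and 75.2% had fewer than Setd7. On both strands, the full estrogen response element GGTCANNNTGACC was found in 0 of the 5 windows and in 23 of the 32851. A single arm of it, GGTCA, stood in 1 of the 5 (Kmt2d) and in 40.5% of all windows. The GC box GGGCGG stood in 3 of the 5 (Kmt2a, Kmt2c and Kmt2d) and in 35.7% of all windows. These are matches of letters in a fixed window, and other sequence of the genes was not searched.

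Sequencing depth ran from 19820184 to 23267410 reads on genes, and both WT E2 libraries were deeper than all others. The WT vehicle libraries held 21614299 and 20179344 reads on genes, and the WT E2 libraries 22287412 and 23267410. The Het-Met vehicle libraries held 21079441, 19820184 and 21562281, and the Het-Met E2 libraries 20435141, 21692470 and 21085953. Each of the 8 genes was measured with 1025 to 7530 reads per library, a counting error of a few percent at most. The tissue label was checked against markers. The 5 pan-neuronal markers summed to between 6185 and 6979 CPM, with Snap25 the most abundant. The 7 markers of hippocampal pyramidal and granule neurons summed to between 753 and 884 CPM, with Neurod6 the most abundant, and the 6 ventral hippocampus markers to between 204 and 296 CPM, with Dcn the most abundant. Every marker on these lists was detected. In bulk tissue, fewer cells of a type and less RNA per cell cannot be told apart.

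All 8 transcripts were well expressed in the vHpc. Per kilobase of exon, which allows genes of different length to be compared, mean levels over the 10 libraries ran in the order Setd7 (21.7 CPM per kb), Kmt2a (16.9), Kmt2e (15.3), Setd1a (15.2), Kmt2d (10.2), Kmt2b (9.84), Kmt2c (7.44) and Setd1b (5.15). Setd7 was above Kmt2a in 9 of the 10 libraries, and Kmt2e was above Setd1a in only 6 of 10. The range of Kmt2c lay wholly below that of Kmt2b and wholly above that of Setd1b. The other neighbours in this order had overlapping ranges. A single union of exons per gene was used as length, 6795 bases for Setd1a, the shortest, and 20291 for Kmt2c, the longest. Of the exonic bases of Setd1a, 51.9% are also annotated to a read-through gene on the same strand, and 9.31% of those of Kmt2e lie opposite to exons of Srpk2 (mean 226 CPM), so these values carry some uncertainty. Whether strand was used in counting was not stated.

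Het-Met mice were first compared with WT mice over both treatments. All 8 transcripts had lower mean log2 levels in OVX Het-Met mice, by 0.04 (Kmt2b) to 0.20 (Kmt2a) on the log2 scale, but the differences were small and none was called. Without WT vehicle replicate 1, 6 of the 8 were below 0, with Kmt2b at 0.09 and Setd1a at 0.02. Without Het-Met E2 replicate 2, 7 of the 8 were below 0. A call needed a Benjamini-Hochberg adjusted p under 0.05 over all genes tested and a fold change above 1.3 in limma, and 4 genes (0.0265%) passed it. The edgeR and DESeq2 tests also called 0 of the 8 in each of the 6 comparisons. Over both treatments they called 4 and 88 of the 15081 genes, in turn. At an unadjusted p under 0.05 (16.6% of all genes), 5 of the 8 were lower (Kmt2a, Kmt2c, Kmt2e, Setd1b and Setd7) and 0 higher, against 7.27% of all genes lower and 9.33% higher. With 1 Het-Met library left out, the count of the 8 at that unadjusted p ran from 2 to 6. The ends were without Het-Met E2 replicate 2 (2137 of the 15081 genes) and without Het-Met vehicle replicate 3 (2721 genes). Leaving out a WT library left 1 in its group. The median of the 8 log2 fold changes then ran from -0.18 (without WT vehicle replicate 3) to -0.14 (without WT vehicle replicate 1). A log2 fold change below 0 was found for 42.7% of all genes. The median of the 8 log2 fold changes was -0.15, beside 0.02 over all genes. The 6 Het-Met libraries lay wholly below the 4 WT libraries for 0 of the 8, and for 1.72% of all genes.

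**Figure D1:**
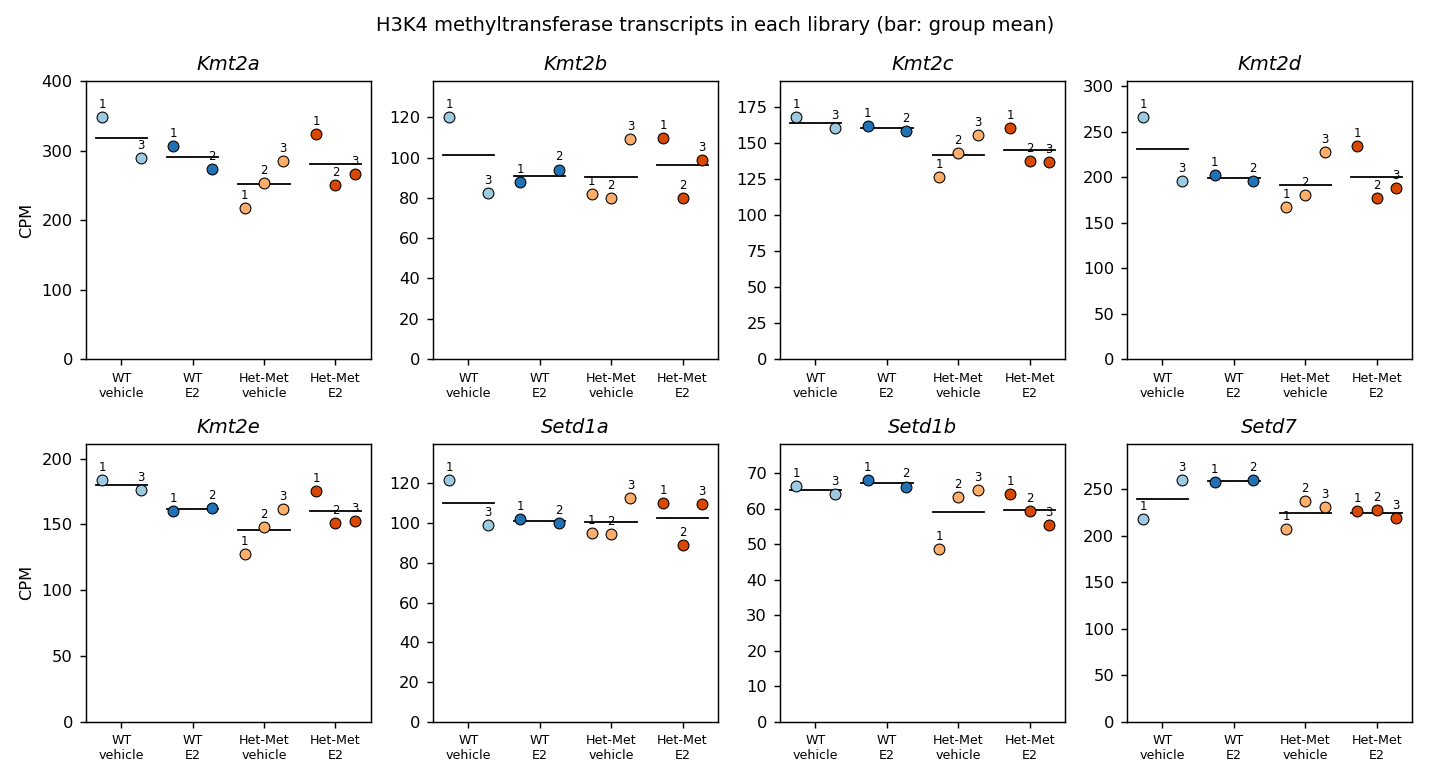
CPM of each of the 8 transcripts (vertical axis, from 0) in the 10 libraries, by genotype and treatment. Points are libraries, numbered by replicate, and bars are group means. WT vehicle replicate 1 was the highest library for 6 of the 8 genes and Het-Met vehicle replicate 1 the lowest for 6.

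KMT2A and KMT2B trimethylate H3K4 at the promoters of developmental genes. In WT mice Kmt2a stood at 348 and 290 CPM under vehicle and at 308 and 273 CPM under E2. In Het-Met mice it stood at 218, 254 and 286 CPM under vehicle and at 325, 251 and 267 CPM under E2. Under vehicle both WT libraries were thus above all 3 Het-Met libraries, whereas under E2 the groups overlapped and a Het-Met library was the highest. Over both treatments the log2 fold change of Kmt2a was -0.20 (SE 0.09, limma adjusted p = 0.265), and under vehicle -0.34 (SE 0.12, adjusted p = 0.390). Without WT vehicle replicate 1 these were -0.13 and -0.21, and without Het-Met vehicle replicate 1 as well, -0.08 and -0.11. In WT mice Kmt2b stood at 120 and 82.5 CPM under vehicle and at 87.8 and 94.1 CPM under E2. The Het-Met values were 82.2, 79.9 and 109 CPM under vehicle and 110, 80.1 and 98.8 CPM under E2. The ranges of the genotypes overlapped under both treatments, and the difference over both was -0.04 (SE 0.11, limma adjusted p = 0.888, 95% interval -0.28 to 0.20). With 1 library left out it ran from -0.18 (without WT vehicle replicate 3) to 0.09 (without WT vehicle replicate 1).

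KMT2C and KMT2D monomethylate H3K4 at enhancers. In WT mice Kmt2c stood at 168 and 160 CPM under vehicle and at 162 and 158 CPM under E2. In Het-Met mice it stood at 127, 143 and 156 CPM under vehicle and at 161, 138 and 137 CPM under E2. All 4 WT libraries lay within 10 CPM of each other, and 5 of the 6 Het-Met libraries lay below them. Kmt2c had the smallest p of the 8 over both treatments and a log2 fold change of -0.18 (SE 0.06, limma adjusted p = 0.186). In WT mice Kmt2d stood at 266 and 196 CPM under vehicle and at 202 and 196 CPM under E2. Het-Met mice had 167, 181 and 227 CPM under vehicle and 234, 177 and 188 CPM under E2. A single library, WT vehicle replicate 1, stood above the rest, and the log2 fold change of -0.13 (SE 0.10) had a limma adjusted p of 0.523 and was -0.02 without that library.

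KMT2E carries a SET domain but is thought to lack methyltransferase activity of its own, and reads methylated H3K4 through its PHD finger. In WT mice Kmt2e stood at 184 and 176 CPM under vehicle and at 160 and 163 CPM under E2. The Het-Met values were 128, 148 and 161 CPM under vehicle and 176, 151 and 153 CPM under E2. Under vehicle the WT libraries were above all Het-Met libraries, with a log2 fold change of -0.31 (SE 0.09, limma adjusted p = 0.331), the smallest p of the 8 in that comparison. Under E2 the difference was -0.02 (SE 0.09).

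SETD1A and SETD1B deposit most of the trimethylated H3K4 at active promoters. In WT mice Setd1a stood at 122 and 98.9 CPM under vehicle and at 102 and 99.9 CPM under E2. Het-Met mice had 94.8, 94.4 and 113 CPM under vehicle and 110, 88.9 and 109 CPM under E2. The groups overlapped, and the log2 fold change over both treatments was -0.06 (SE 0.08, limma adjusted p = 0.753, 95% interval -0.22 to 0.11). With 1 library left out this value ran from -0.13 (without WT vehicle replicate 3) to 0.02 (without WT vehicle replicate 1). In WT mice Setd1b stood at 66.6 and 64.2 CPM under vehicle and at 68.2 and 66.3 CPM under E2. The Het-Met values were 48.6, 63.3 and 65.4 CPM under vehicle and 64.3, 59.5 and 55.3 CPM under E2. The WT libraries again lay close together and the Het-Met libraries spread below them, with overlap under vehicle but not under E2, and the log2 fold change over both treatments was -0.16 (SE 0.08, limma adjusted p = 0.298), or -0.10 without Het-Met vehicle replicate 1.

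In WT mice Setd7 stood at 219 and 260 CPM under vehicle and at 258 and 260 CPM under E2. In Het-Met mice it stood at 207, 237 and 231 CPM under vehicle and at 227, 228 and 219 CPM under E2. Here WT vehicle replicate 1, the highest library for most of the other genes, was low. The genotypes overlapped under vehicle and were separated under E2. Under E2 the log2 fold change of Het-Met against WT mice was -0.21 (SE 0.08, limma adjusted p = 0.371), and over both treatments it was -0.15 (SE 0.06, adjusted p = 0.221). With 1 library left out the latter ran from -0.21 (without WT vehicle replicate 1) to -0.08 (without WT vehicle replicate 3).

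Within treatments, all 8 log2 fold changes were below 0 under vehicle (44.7% of all genes) and 6 of 8 under E2 (42.7%). The vehicle count was 6 of 8 without WT vehicle replicate 1 and 7 of 8 without WT vehicle replicate 3. It was 4 of 8 without WT vehicle replicate 1 and Het-Met vehicle replicate 1 together. The median was -0.19 under vehicle (0.02 over all genes) and -0.04 under E2 (0.03 over all genes). The value under E2 rested on single libraries, being -0.15 with all 8 below 0 without Het-Met E2 replicate 1, 0.02 with 3 of 8 below 0 without Het-Met E2 replicate 2, -0.0051 with 4 of 8 below 0 without WT E2 replicate 1 and -0.08 with 6 of 8 below 0 without WT E2 replicate 2. Again 0 of the 8 were called, beside 1 gene (0.00663%) under vehicle and 4 genes (0.0265%) under E2. At an unadjusted p under 0.05 in limma, 3 were lower under vehicle (Kmt2a, Kmt2c and Kmt2e), against 4.83% of all genes, and 1 was lower under E2 (Setd7), against 5.36%. The same 3 genes were the ones whose vehicle-treated libraries did not overlap, which was so in this direction for 9.89% of all genes. Under E2 the libraries of Setd1b and Setd7 did not overlap, against 14.7% of all genes. With 1 Het-Met library left out, the vehicle count at an unadjusted p under 0.05 ran from 1 to 4. The ends were without Het-Met vehicle replicates 1 and 3, where 1033 and 1806 of the 15081 genes passed, in turn. With 1 library of either genotype left out, the vehicle median ran from -0.31 (without WT vehicle replicate 3) to -0.11 (without Het-Met vehicle replicate 1). Leaving out WT vehicle replicate 1 and Het-Met vehicle replicate 1 together gave a median of -0.05 under vehicle and -0.08 over both treatments.

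**Figure D2:**
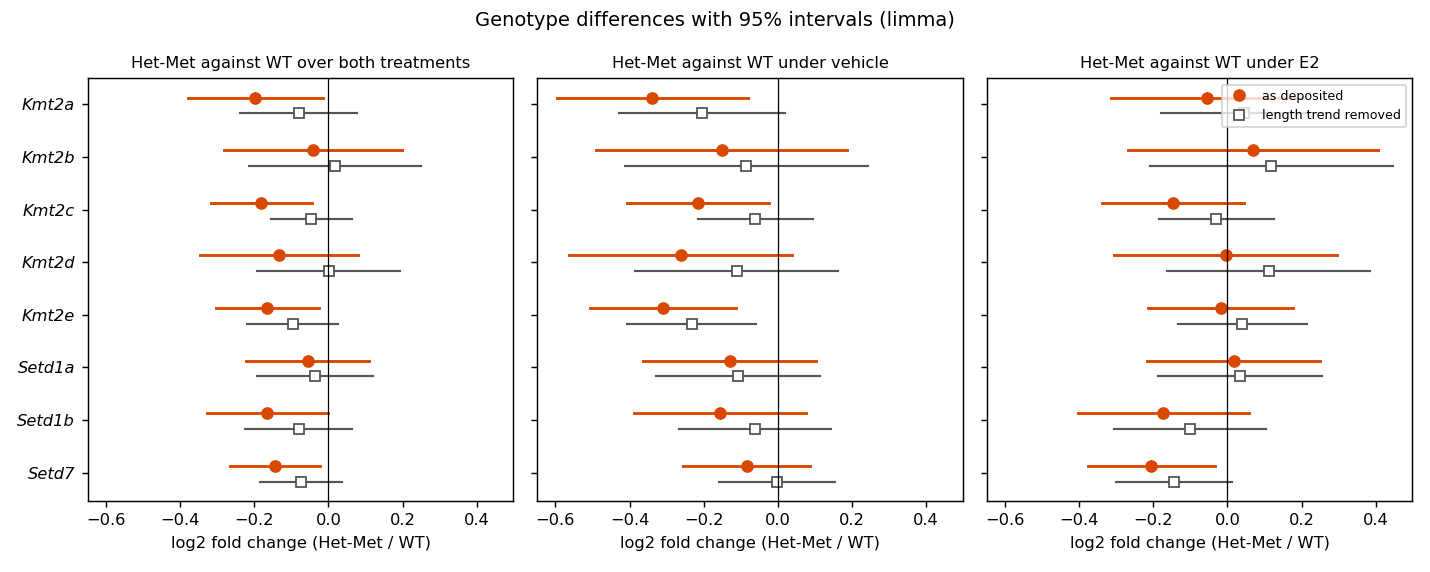
Log2 fold change of OVX Het-Met against OVX WT mice (horizontal axis) for each transcript, over both treatments and under each. Points are limma estimates with 95% intervals, filled for the CPM as deposited and open after the trend on transcript length had been removed from each library. Over both treatments all 8 filled points lie below 0, and every open interval includes 0.

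These are long transcripts, with a median of 11440.5 exonic bases against 4434 over all genes tested, and the genotype difference was therefore set beside length. Over 10 equal bins of the 14947 genes with a known length, the median genotype log2 fold change over both treatments fell from 0.13 in the shortest bin (65 to 1744 bases) to -0.08 in the longest (9884 to 123179 bases). Of the genes in the longest bin 78.9% had a log2 fold change below 0, and of those in the shortest 20.9%. Kmt2a, Kmt2c, Kmt2d, Kmt2e, Setd1b and Setd7 fell in the longest bin, Kmt2b in the ninth and Setd1a in the eighth. All 8 lay below the median of their own bin, though Kmt2b almost on it, with a median difference of -0.07, and 0 of the 8 lay below percentile 10 of their bin. The longest bin was wide, and Kmt2a (16670 bases), Kmt2c (20291) and Kmt2d (19931) were longer than its median of 12502 bases. With the trend removed by a smooth fit on length, Kmt2d stood at 0.000467 and Kmt2c at -0.05. Under vehicle 7 of the 8 lay below the median of their bin, with a median difference of -0.11, and 2 (Kmt2a and Kmt2e) below percentile 10, and under E2 3 lay below the median and 0 below percentile 10.

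**Figure D3:**
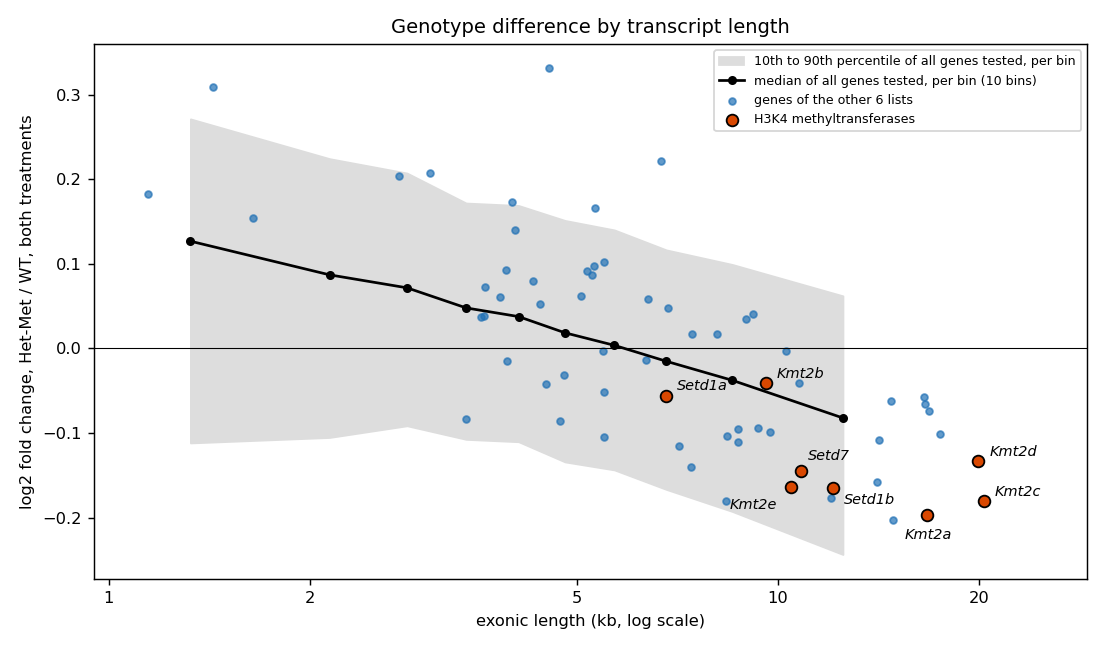
Log2 fold change of OVX Het-Met against OVX WT mice over both treatments (vertical axis) against exonic length (horizontal axis, log scale). The line joins the medians of the 14947 tested genes with a known length in 10 bins, and the grey area spans percentiles 10 to 90. Of the 8 genes (orange), Kmt2b lies close to the line, and Kmt2e, Setd1a, Setd1b and Setd7 lie below it. The line ends at the median length of the longest bin, 12502 bases, and Kmt2a, Kmt2c and Kmt2d lie beyond its end. The genes of 6 related lists (blue) lie on both sides.

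With the trend on length removed from each library and the fit repeated, the median of the 8 over both treatments was -0.06, with 6 values below 0 (46.4% of all genes after the same removal), and 0 of the 8 had an unadjusted p under 0.05 in limma, against 11.4% of all genes. The values then ran from -0.10 (Kmt2e, 95% interval -0.22 to 0.03) to 0.02 (Kmt2b, -0.22 to 0.25). For Kmt2a the value was -0.08 (-0.24 to 0.08) and for Kmt2c -0.05 (-0.16 to 0.06). Under vehicle the median was -0.10, with all 8 below 0 (48.2% of all genes), and Kmt2e alone had an unadjusted p under 0.05 (7.20% of all genes), at a log2 fold change of -0.23. Under E2 the median was 0.04, with 3 values below 0 (45.8% of all genes).

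The same trend was visible in single libraries. Reads on genes with over 6 kb of exon made up 46.0% and 46.6% of the WT vehicle libraries and 46.5% and 46.1% of the WT E2 libraries. They made up 42.7%, 44.8% and 44.8% of the Het-Met vehicle libraries and 45.5%, 44.4% and 44.6% of the Het-Met E2 libraries. All 4 WT libraries were thus above all 6 Het-Met libraries. The share of reads on ribosomal protein genes, which are short, ran the other way, from 0.223% to 0.238% in WT and from 0.244% to 0.288% in Het-Met libraries. The summed CPM of the 8 genes was 1493 and 1328 in WT vehicle and 1349 and 1310 in WT E2 libraries. It was 1073, 1201 and 1349 in Het-Met vehicle and 1406, 1173 and 1226 in Het-Met E2 libraries. Het-Met vehicle replicate 1 was lowest for the 8 genes and for long genes and highest for ribosomal protein genes. The genotype of a library and its share of long-gene reads cannot be told apart here.

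**Figure D4:**
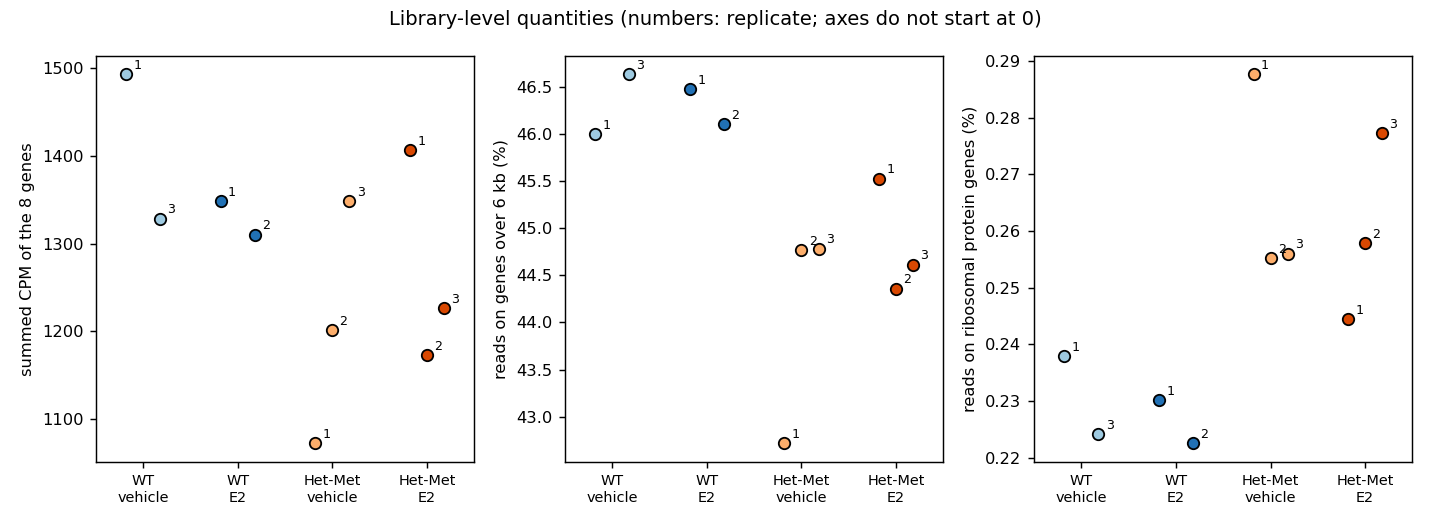
Summed CPM of the 8 genes, percent of reads on genes with over 6 kb of exon and percent of reads on ribosomal protein genes (vertical axes, not starting at 0) in each library, by genotype and treatment. Numbers are replicates. The long-gene share of the WT libraries, 46.0% to 46.6%, lies above that of the Het-Met libraries, 42.7% to 45.5%.

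Markers of tissue next to the hippocampus also varied between libraries. The 7 choroid plexus markers, all detected and with Ttr the most abundant (mean 1300 CPM), summed to 146 and 1055 CPM in WT vehicle and 2432 and 1855 CPM in WT E2 libraries. In Het-Met libraries their sum was 3218, 1433 and 1891 CPM under vehicle and 1509, 424 and 254 CPM under E2. The lowest sum was that of WT vehicle replicate 1, the highest library for 6 of the 8 methyltransferase genes. The highest sum was that of Het-Met vehicle replicate 1, the lowest library for 6 of them. The 5 thalamus markers, led by Plekhg1, summed to 64.2 and 74.4 CPM in WT vehicle and 68.0 and 70.4 CPM in WT E2 libraries, and to 68.2, 64.8 and 85.0 CPM in Het-Met vehicle and 76.6, 85.8 and 103 CPM in Het-Met E2 libraries. The thalamus sum was thus above all WT libraries in 4 of the 6 Het-Met libraries, among them all 3 given E2. The 5 meninges markers, led by Igf2, summed to between 166 and 285 CPM, with the genotypes overlapping. The 4 pituitary markers, led by Prl, ran from 1.80 to 210 CPM, with the genotypes overlapping. The 5 oligodendrocyte markers, led by Mbp, summed to between 3619 and 4676 CPM and the 5 astrocyte markers, led by Slc1a3, to between 1601 and 1925 CPM, with the genotypes overlapping for both, as they did for the 5 microglia markers, led by Csf1r (274 to 321 CPM), and the 5 endothelial markers, led by Flt1 (158 to 204 CPM). The part of these tissues in the levels of the methyltransferases was not tested.

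The response to E2 was then compared with vehicle within each genotype. Of the 7 KMT2 and SETD1 transcripts, 6 had log2 fold changes below 0 in OVX WT mice and all 7 above 0 in OVX Het-Met mice, with Setd7 at 0.12 and -0.00, but 0 of the 8 had an unadjusted p under 0.05 in either genotype (limma, 4.04% of all genes in WT mice and 5.45% in Het-Met mice). By the adjusted rule 0 of the 8 were called in either, beside 2 genes (0.0133%) in WT and 0 (0%) in Het-Met mice. The median of the 8 was -0.12 in OVX WT mice (6 of 8 below 0, 51.0% of all genes) and 0.05 in OVX Het-Met mice (1 of 8 below 0, 48.2% of all genes), beside -0.00 and 0.00 over all genes. With a replicate block the median in OVX WT mice was -0.04. With the length trend removed the medians were -0.14 (6 of 8 below 0, 53.1% of all genes) and 0.01 (3 of 8 below 0, 51.1% of all genes). In OVX WT mice the values ran from -0.20 for Kmt2d (95% interval -0.53 to 0.13) to 0.12 for Setd7 (-0.07 to 0.31). In OVX Het-Met mice they ran from -0.00 for Setd7 (-0.15 to 0.15) to 0.15 for Kmt2a (-0.08 to 0.38), which was 0.04 without Het-Met E2 replicate 1 and 0.24 without Het-Met vehicle replicate 3. Kmt2e was the gene of the 8 whose E2-treated WT libraries (160 and 163 CPM) lay below both vehicle-treated ones (184 and 176 CPM), a separation seen in this direction for 16.2% of all genes. These directions rested on single libraries. In OVX WT mice 4 of the 8 were below 0 without WT vehicle replicate 1, with a median of 0.01. In OVX Het-Met mice 5 of the 8 were below 0 without Het-Met vehicle replicate 1 and 6 of the 8 without Het-Met E2 replicate 1, with a median of -0.02 in both cases, and the median was 0.15 without Het-Met vehicle replicate 3 and 0.14 without Het-Met E2 replicate 2. The count at an unadjusted p under 0.05 was 2 in OVX Het-Met mice without Het-Met vehicle replicate 3, where 805 of the 15081 genes passed. Without WT vehicle replicate 3, which left 1 library in its group, the median of the 8 in OVX WT mice was -0.22.

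The difference between the E2 responses of the genotypes was tested as an interaction, coded as the response of Het-Met minus that of WT mice. The interaction was not called for any of the 8, beside 11 genes (0.0729%) called, a count that ran from 0 (without WT vehicle replicate 1, among others) to 71 (without Het-Met E2 replicate 1) with 1 library left out. Kmt2e alone had an unadjusted p under 0.05, with a value of 0.29 on the log2 scale (SE 0.13, limma adjusted p = 0.867), and 2.80% of all genes passed that unadjusted threshold upward. Kmt2a had a value of 0.28 (SE 0.17), which ran from 0.15 (without WT vehicle replicate 1) to 0.42 (without WT vehicle replicate 3) with 1 library left out, and Kmt2d of 0.26 (SE 0.20), which ran from 0.04 to 0.48 without the same libraries. Setd1b and Setd7 had values below 0 (48.6% of all genes), of -0.02 (SE 0.15) and -0.12 (SE 0.11). The median was 0.18 (0.01 over all genes), or 0.10 with a replicate block. It was -0.05 without the libraries numbered 1 of both vehicle-treated groups. The count at an unadjusted p under 0.05 was 0 with median-of-ratios or TMM scaling and in edgeR. It was also 0 without the filter on low values and with a replicate block. With 1 Het-Met library left out the count ran from 0 to 2, the highest without Het-Met vehicle replicate 3, where 860 of the 15081 genes passed. The median was 0.02 and 0.31 without WT vehicle replicates 1 and 3, in turn, which left 1 library in that group.

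**Figure D5:**
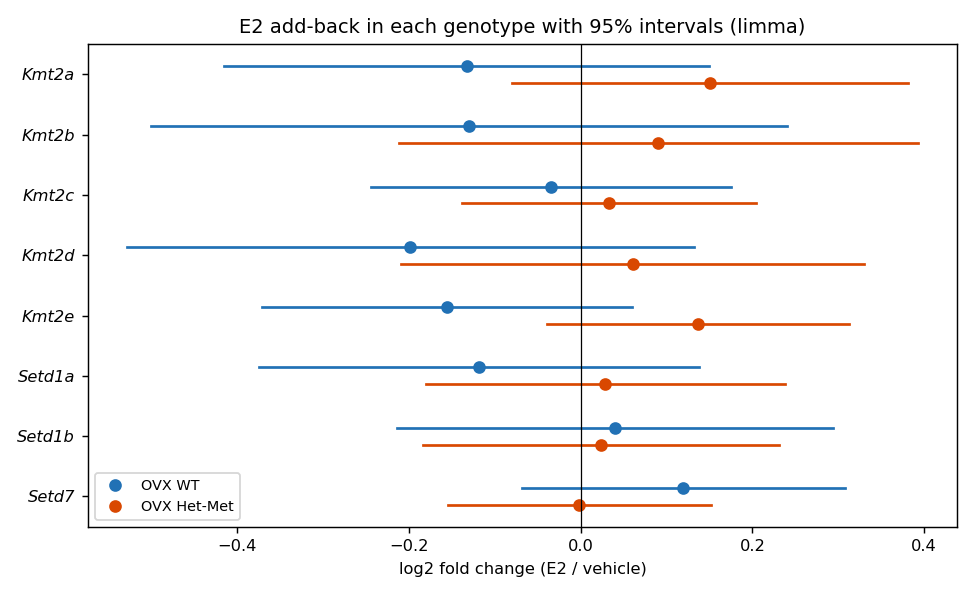
Log2 fold change of E2 against vehicle (horizontal axis) for each transcript in OVX WT (blue) and OVX Het-Met mice (orange), as limma estimates with 95% intervals. All intervals include 0, and for 6 of the 8 genes the WT point lies below 0 and the Het-Met point above it.

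The 8 transcripts did not vary as one. Over the 10 libraries, log2 levels of the KMT2 and SETD1 genes were positively correlated in all 21 pairs, with Pearson r from 0.36 to 0.95 and a median of 0.80. Kmt2b and Setd1a were closest (0.95), followed by Kmt2a and Kmt2e (0.93). Setd1b went with Kmt2c (0.91) but less with Kmt2b and Setd1a (0.36 each). Setd7 stood apart, with r from -0.27 (with Kmt2b) to 0.69 (with Setd1b) and a median of 0.26 over its 7 pairs. With the length trend removed, r ran from 0.27 to 0.94 in the 21 pairs and from -0.61 to 0.43 in the 7 pairs of Setd7. Libraries share tissue, genotype, pooled animals and scaling, so these values describe the 10 libraries only.

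The genes also fell into different classes of base composition. The longest transcripts of Kmt2b, Kmt2d, Setd1a and Setd1b have 57.0% to 59.1% G and C, whereas those of Kmt2a, Kmt2c, Kmt2e and Setd7 have 45.9% to 50.6%. Kmt2b, Kmt2d and Setd1a varied together (r 0.88 to 0.95), whereas Setd1b, of like composition, did not follow Kmt2b and Setd1a as closely. The classes did not part the genes cleanly, since Kmt2d was as close to Kmt2a (0.91) as to Kmt2b (0.90) and Setd1a (0.88).

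The gene most like each of the 8 over the 10 libraries was Tet2, a DNA demethylation enzyme, for Kmt2a (r 0.97), Polm for Kmt2b (0.96), Dennd4c for Kmt2c (0.98), Pkd1 for Kmt2d (0.99), Zfp236 for Kmt2e (0.97), Ints1, a subunit of the Integrator complex, for Setd1a (0.97), Spen for Setd1b (0.97) and Usp6nl for Setd7 (0.99). Of these, 7 have over 8 kb of exon and Polm has 3658 bases. Tet2 stood at 77.4 and 63.3 CPM in WT vehicle and at 50.4, 58.0 and 59.7 CPM in Het-Met vehicle libraries. Usp6nl stood at 18.5 and 19.3 CPM in WT E2 and at 16.0, 15.4 and 14.8 CPM in Het-Met E2 libraries. Since they were picked for their likeness over the same libraries, these group differences follow from the choice.

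Other genes of the H3K4 pathway, and methyltransferases of other histone sites, were described with 56 genes in 6 lists by role, all of them tested, and 0 were called for genotype over both treatments. The edgeR and DESeq2 tests also called 0 of the 56, beside 4 and 88 of all genes tested, in turn. At an unadjusted p under 0.05 in limma 6 were lower and 5 higher, against 7.27% of all genes lower and 9.33% higher. Of the 4 shared core subunits, 3 had log2 fold changes above 0 (below 0 for 42.7% of all genes) and 0 passed the unadjusted threshold. Group means (WT vehicle, WT E2, Het-Met vehicle, Het-Met E2, in this order) were 33.7, 30.8, 33.9 and 32.4 CPM for Wdr5, 62.8, 63.6, 62.6 and 62.5 CPM for Rbbp5, 46.5, 45.6, 46.1 and 48.4 CPM for Ash2l and 20.5, 18.9, 22.8 and 22.1 CPM for Dpy30. The genotype log2 fold changes were 0.04 for Wdr5 (95% interval -0.10 to 0.17), -0.02 for Rbbp5 (-0.13 to 0.10), 0.03 for Ash2l (-0.09 to 0.16) and 0.18 for Dpy30 (-0.01 to 0.37). These genes are shorter than the enzymes, with a median of 3763 exonic bases.

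Of 13 subunits and partners particular to some of the complexes, 3 were lower and 2 higher at an unadjusted p under 0.05, the threshold of the counts that follow, which 7.27% of all genes passed downward and 9.33% upward. Hcfc1, which joins KMT2A, KMT2B and the SETD1 enzymes, had a log2 fold change of -0.18 (limma adjusted p = 0.138) and Bod1l, a partner of the SETD1 enzymes, of -0.18 (limma adjusted p = 0.161). Pagr1a, a subunit of the KMT2C and KMT2D complexes, had 0.31 (limma adjusted p = 0.143). Of 5 H3K4 demethylases, which remove the mark, 1 was lower, Kdm5c (-0.11, limma adjusted p = 0.292), with Kdm5a at -0.11 (limma adjusted p = 0.364) and Kdm1a at 0.09 (limma adjusted p = 0.468). Of 12 readers of methylated H3K4, Ing2 was higher (0.21, limma adjusted p = 0.162) and Bptf, a subunit of the NURF remodeller, was lower (-0.16, limma adjusted p = 0.252), and Ing4 was at 0.17 (limma adjusted p = 0.348).

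Of 4 other H3K4 methyltransferases, all 4 had log2 fold changes above 0, and Smyd2 had the smallest p (0.20, limma adjusted p = 0.126), with means of 55.3 CPM (vehicle) and 55.2 CPM (E2) in WT mice and of 62.8 and 64.8 CPM in Het-Met mice. Smyd1 was at 0.33 (limma adjusted p = 0.338) with means between 2.39 and 3.49 CPM, and Smyd3 at 0.04 (limma adjusted p = 0.847). Of 18 methyltransferases of other histone sites, 1 was lower and 1 higher (7.27% and 9.33% of all genes). Ash1l, a large enzyme for H3K36, was at -0.20 (limma adjusted p = 0.167), Ehmt2, which methylates H3K9, at 0.10 (limma adjusted p = 0.292), and Nsd1, another H3K36 enzyme, at -0.10 (limma adjusted p = 0.318). The median of these 4 H3K4 enzymes was 0.14 at a median length of 4427 bases, and that of the 18 enzymes of other sites 0.02 at 7430 bases. With the length trend removed, the medians were 0.12 and 0.05, beside -0.06 for the 8 genes and 0.01 for all genes.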

How the data were processed

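RNA of the vHpc was sequenced as 75-bp single-end reads from stranded libraries. The authors aligned trimmed reads to mm10 with TopHat2 and deposited CPM per gene symbol; the counting settings were not given in the sources used here. In each library 100% of the CPM values were whole multiples of 1 read (tolerance 1e-06), and the reads were recovered for the alternatives. Symbols were matched to GENCODE vM21 (23336 directly, 654 by another symbol, 431 not) for exonic length and the GC content of the longest transcript.

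In R 4.3.3, limma 3.58.1 fitted 4 group means over all 10 libraries to log2(CPM + 0.5), for genes whose mean was 0.5 CPM or more. Variances were moderated along mean expression (prior df 8.90, residual df 6), and tests were two-sided. Het-Met was compared with WT over both treatments and within each, and E2 with vehicle within each genotype, and their interaction was tested. Fold changes of this scale understate those of low genes. p-values measure the spread between libraries of pooled animals. The length trend was a smooth fit (mgcv 1.9.3) of each library's deviations on log2 exonic length. edgeR 4.0.16 and DESeq2 1.42.0 were alternatives on the recovered reads. The test was checked on simulated data, and figures were drawn with matplotlib 3.10.9.

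The members and the lists were chosen with earlier results of these data known, so the direction of their differences is not independent evidence. Genes named outside the 8 were all core subunits, the 3 genes of each other list with the smallest p for genotype over both treatments, and for each of the 8 the gene with the highest Pearson r. The alternatives were other pseudocounts, filters, thresholds, scalings and tests, the libraries compared alone, a replicate block, removal of trends on length and GC content, and each library left out in turn. Leaving out 2 libraries together was chosen after seeing the data.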

Additional observations from a re-analysis of the deposited data

How the results depend on the processing

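The adjusted rule called 0 of the 8 genes in each of the 6 comparisons under every alternative and with libraries left out. The smallest limma adjusted p was 0.0858, for Setd7 over both treatments, without WT vehicle replicate 1 and Het-Met vehicle replicate 1 together. With 1 library left out the smallest was 0.0883 (over both treatments, without WT vehicle replicate 1). Over the other alternatives it was 0.0999 (under E2, with only the libraries compared). Among all genes, adjusted calls over the 6 comparisons (in the order of genotype over both treatments, under vehicle and under E2, E2 in WT, E2 in Het-Met, interaction) were 4, 1, 4, 2, 0 and 11 in limma, 4, 1, 14, 2, 0 and 13 in edgeR and 88, 38, 29, 14, 6 and 38 in DESeq2. With 1 library left out the limma calls ran from 1 to 86 over both treatments (86 without Het-Met vehicle replicate 2), from 1 to 2 under vehicle, from 0 to 45 under E2 (45 without Het-Met E2 replicate 1), from 0 to 16 for E2 in WT mice and from 0 to 71 for the interaction (both highest without Het-Met E2 replicate 1, with 46 for the interaction without WT vehicle replicate 3). With an unadjusted p in their place and the fold change kept they were 293, 496, 696, 389, 294 and 597. The median genotype difference of the 8 over both treatments ran from -0.18 to -0.05 over the alternatives and from -0.20 to -0.08 with libraries left out.

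The count of the 8 at an unadjusted p under 0.05 over both treatments (5 as reported) was 3 without a filter on low values and 0 with the trend on length, or on length and GC content, removed. Under vehicle (3) it was 1 with the length trend removed, 2 with length and GC content removed and 2 with a replicate block. Under E2 (1) it was 2 with only the libraries compared and 0 with either trend removed. With 1 Het-Met library left out the count ran from 2 to 6 over both treatments, from 1 to 4 under vehicle and from 0 to 2 under E2. Under E2, 1199 of the 15081 genes passed without Het-Met E2 replicate 3 (0 of the 8) and 2110 without Het-Met vehicle replicate 1 (2 of the 8). The count was 0 for E2 in WT mice, and ran from 0 to 2 for E2 in Het-Met mice and for the interaction. With libraries of either genotype left out, the median under vehicle ran from -0.31 (without WT vehicle replicate 3) to -0.0505 (without WT vehicle replicate 1 and Het-Met vehicle replicate 1). For E2 in WT mice it ran from -0.22 to 0.0110 (without WT vehicle replicates 3 and 1, in turn). For E2 in Het-Met mice it ran from -0.0216 to 0.15 (without Het-Met vehicle replicates 1 and 3, in turn), and for the interaction from -0.0490 to 0.31. Without Het-Met vehicle replicate 2 the list of complex partners had 1 call, against 0 with every other library left out.

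Some differences changed sign. With the length trend removed, with length and GC removed, and with a replicate block and length removed, the values were in this order 0.0168, 0.0181 and 0.0387 for Kmt2b and 0.000467, 0.000400 and 0.0236 for Kmt2d over both treatments, and under E2 0.0456, 0.0560 and 0.0478 for Kmt2a, 0.11, 0.12 and 0.12 for Kmt2d and 0.0400, 0.0443 and 0.0333 for Kmt2e. For E2 in Het-Met mice they were -0.0190, -0.0131 and -0.0190 for Kmt2c, and -0.0172 for Setd1b with length removed and -0.0172 with the block as well. Setd1a under E2 was -0.00668 with median-of-ratios scaling, -0.00584 with TMM and -0.000587 in DESeq2. With libraries left out, signs changed within these ranges: for genotype over both treatments, Kmt2b (-0.18 to 0.12), Kmt2d (-0.24 to 0.0230) and Setd1a (-0.13 to 0.0383); for genotype under vehicle, Kmt2b (-0.42 to 0.18), Kmt2d (-0.48 to 0.0502), Setd1a (-0.28 to 0.0593), Setd1b (-0.24 to 0.00217) and Setd7 (-0.21 to 0.0411); for genotype under E2, Kmt2a (-0.17 to 0.0290), Kmt2b (-0.0311 to 0.19), Kmt2d (-0.12 to 0.0775), Kmt2e (-0.0881 to 0.0196) and Setd1a (-0.0352 to 0.12); for E2 in WT mice, Kmt2b (-0.40 to 0.14), Kmt2d (-0.42 to 0.0222), Setd1a (-0.27 to 0.0308) and Setd7 (-0.00610 to 0.25); for E2 in Het-Met mice, Kmt2b (-0.00919 to 0.23), Kmt2c (-0.0456 to 0.10), Kmt2d (-0.0602 to 0.19), Setd1a (-0.0237 to 0.13), Setd1b (-0.11 to 0.10) and Setd7 (-0.0601 to 0.0380); for the interaction, Kmt2b (-0.11 to 0.49), Kmt2c (-0.0441 to 0.14), Kmt2d (-0.0543 to 0.48), Setd1a (-0.0420 to 0.30), Setd1b (-0.17 to 0.0628) and Setd7 (-0.25 to 0.00470). The causes were not tested.

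Replicate numbers gave no sign of pairing: in 12 pairs of libraries with the same number, deviations from group means had r from -0.17 to 0.08. In 25 pairs with different numbers r ran from -0.15 to 0.17. The deviations of the 2 libraries in each WT group mirror each other, so these values are not independent and the check is weak. With the replicate block 3 of the 8 had an unadjusted p under 0.05 over both treatments, and Setd1a under E2 was -0.0107, and the median of the 8 was -0.04 for E2 in WT mice (-0.12 without the block) and 0.10 for the interaction (0.18 without it). With the block and the length trend removed the counts were 0 over both treatments, 1 under vehicle and 0 under E2. With 2 or 3 libraries a group, intervals were wide (for Kmt2b under vehicle, 95% from -0.49 to 0.19), and differences within them were not detectable.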
